A study of Homo sapiens with 68 samples.

Results

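A673 is a human Ewing sarcoma cell line that carries the EWS/FLI translocation, and the comparison described here is of A673 cells kept for 3 days in puromycin at 0.18 μM, which is 2 times the EC50 (the concentration of median effect on viability), with cells kept for the same time in vehicle (DMSO). The arrays were taken by their sample titles: 3 puromycin arrays (biological replicates 1, 2 and 3) and 5 vehicle arrays (biological replicates 1, 2, 4, 5 and 6), which together are 8 of the 68 arrays of the series. All 68 arrays are of total RNA of this 1 line in culture, hybridised to the Affymetrix human U133 array in its 96-well format. In the study 3 cytotoxic compounds were given at their EC50 and 2 times it, and puromycin and doxorubicin served to ask whether agents that kill Ewing sarcoma cells share what ARA-C does to the EWS/FLI program. Arrays of 4 other kinds serve below for direct comparison: puromycin 0.09 μM (the EC50) at day 3, puromycin 0.18 μM at 24 h with its own 6 vehicle arrays, doxorubicin 119.76 nM at day 3 and ARA-C 0.34 μM at day 3, each of 3 arrays. At day 5 there was 1 array of puromycin 0.18 μM, which was not tested.

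Puromycin is an aminonucleoside that resembles the 3′ end of an aminoacyl-tRNA. It enters the ribosome, is joined to the growing chain and releases it unfinished, so that truncated peptides are made and full-length proteins are lost. Cells that lose short-lived proteins in this way are known to hold on to or induce some short-lived transcripts, and cells that meet misfolded or incomplete proteins can turn on heat shock genes, the unfolded protein response of the endoplasmic reticulum (ER) and the integrated stress response, in which phosphorylated eIF2α allows the transcription factor ATF4 to be made. EWS/FLI is the fusion transcription factor of Ewing sarcoma. It holds some genes up and others down, and cells with EWS/FLI knocked down are called EWS/FLI off.

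The 8 arrays correlated closely, but 2 ratios that grow with RNA degradation, given below, averaged higher on the puromycin arrays. Pearson correlations of log2 signal ran from 0.9855 to 0.9861 among the puromycin arrays, from 0.9822 to 0.9871 among the vehicle arrays and from 0.9713 to 0.9786 between the groups. The cells carried the markers of the line: all 12 measured Ewing sarcoma markers had a median signal of at least 348, while all 17 blood cell markers and all 9 endothelial markers had medians under 100. Of the 14 epithelial markers 12 were under 100, and KRT18 was bright (median 10600). The log2 ratio of the 3′ to the 5′ control probe set of ACTB, which grows as RNA is degraded or copied short, was 0.747 to 1.15 on the puromycin arrays and 0.289 to 0.814 on the vehicle arrays, a difference of 0.45 (exact two-sided permutation test over all 56 splits, n = 3 and 5, p = 0.0536, adjusted p = 0.0536 over the 2 ratios). That of GAPDH was 0.00267 to 0.313 against -0.107 to 0.0336, a difference of 0.20 (exact permutation p = 0.0357, adjusted p = 0.0536, where the smallest p possible is 0.0179). The part of RNA quality in the differences below was not tested. All 3 puromycin arrays lay in rows A-F of the array plate, with 2 of the vehicle arrays (replicates 1 and 2), while the other 3 vehicle arrays lay in rows G-H. For that reason values against the vehicle arrays of rows A-F alone are given beside the results where a call or a count changed most.

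Of 22215 probe sets tested, 980 were higher (4.41%) and 1597 lower (7.19%) with puromycin at an adjusted p under 0.05 in a limma fit over all probe sets. Changes of at least 1 on the log2 scale numbered 331 up and 693 down, and changes of at least 2 numbered 43 up and 87 down. The balance of rises and falls depended on scaling. With the deposited scaling, which sets the mean signal of every array equal, 38.0% of the calls were rises and the median change over all probe sets was -0.01. After quantile normalization there were 1447 rises and 1449 falls, and after shifting each array to a common median, which moved the median change to 0.14, there were 1537 rises and 986 falls. Against the vehicle arrays of rows A-F there were 592 rises and 1557 falls. Rises and falls below are those under the deposited scaling, and small falls of whole groups should be read against that shift of 0.14.

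Most of the 15 largest rises were in genes that were dim in vehicle cells. SLITRK3, which encodes a neuronal transmembrane protein, read 187, 191 and 176 on the 3 puromycin arrays and 4.16, 1.77, 8.86, 2.93 and 6.09 on the vehicle arrays. The vehicle values all lie under the floor of 10 that was set before taking logs, so its log2 change of 4.21 ± 0.51 (SE) is measured against that floor (adjusted p = 1.2e-08). CCK, which encodes the peptide hormone cholecystokinin, read 122, 83.1 and 218 against 8.31, 3.27, 1.46, 1.63 and 1.25, again with every vehicle array under the floor (log2 change 3.70 ± 0.46, adjusted p = 2e-08). ACKR3, an atypical receptor for the chemokine CXCL12, read 129, 92.6 and 257 against 11.4, 8.3, 36.7, 3.58 and 4.36 (log2 change 3.45 ± 0.58, adjusted p = 1.3e-05).

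Among the rises with a measured vehicle level, AMPD1, the muscle AMP deaminase, read 862, 710 and 947 on the puromycin arrays and between 107 and 155 on the vehicle arrays, 6.54-fold higher (log2 change 2.71 ± 0.20, adjusted p = 5.7e-15). OLFM1, which encodes the secreted neuronal glycoprotein noelin, read 596, 539 and 746 against 77.2 to 114 (6.78-fold, adjusted p = 6.4e-15). RASSF1, a scaffold of the Hippo pathway and a tumour suppressor, read 1450, 1100 and 1610 against 202 to 268, 5.98-fold higher (adjusted p = 9.8e-10). In each of these 3 genes the lowest puromycin array was at least 4 times the highest vehicle array.

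DHRS2, a short-chain dehydrogenase, read 456, 383 and 449 with puromycin and 16.5 to 75.6 with vehicle (log2 change 3.20 ± 0.52, adjusted p = 7.9e-06). ERBB4, the receptor tyrosine kinase for neuregulins, read 186, 161 and 229 against 5.16 to 36.7 (3.08 ± 0.46, adjusted p = 1.7e-06). The other rises of this group were CLCA1 (log2 change 3.41), DOCK2 (2.82), APOH (2.79), MARCHF1 (2.77), PAX5 (2.60), HAPLN1 (2.56) and SSUH2 (2.50), with adjusted p-values from 2.6e-08 to 0.0023. A second probe set of PAX5, with a vehicle mean of 14.3, was not called. In all 15 genes the puromycin arrays lay above every vehicle array, where 21.6% of all probe sets had groups that did not overlap in either direction. The 15 were chosen for their size on these arrays, so that such separation is in part given by the choice. All 15 were called as rises in each alternative setting, including against the vehicle arrays of rows A-F (log2 changes from 2.14 to 4.21).

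**Figure D1:**
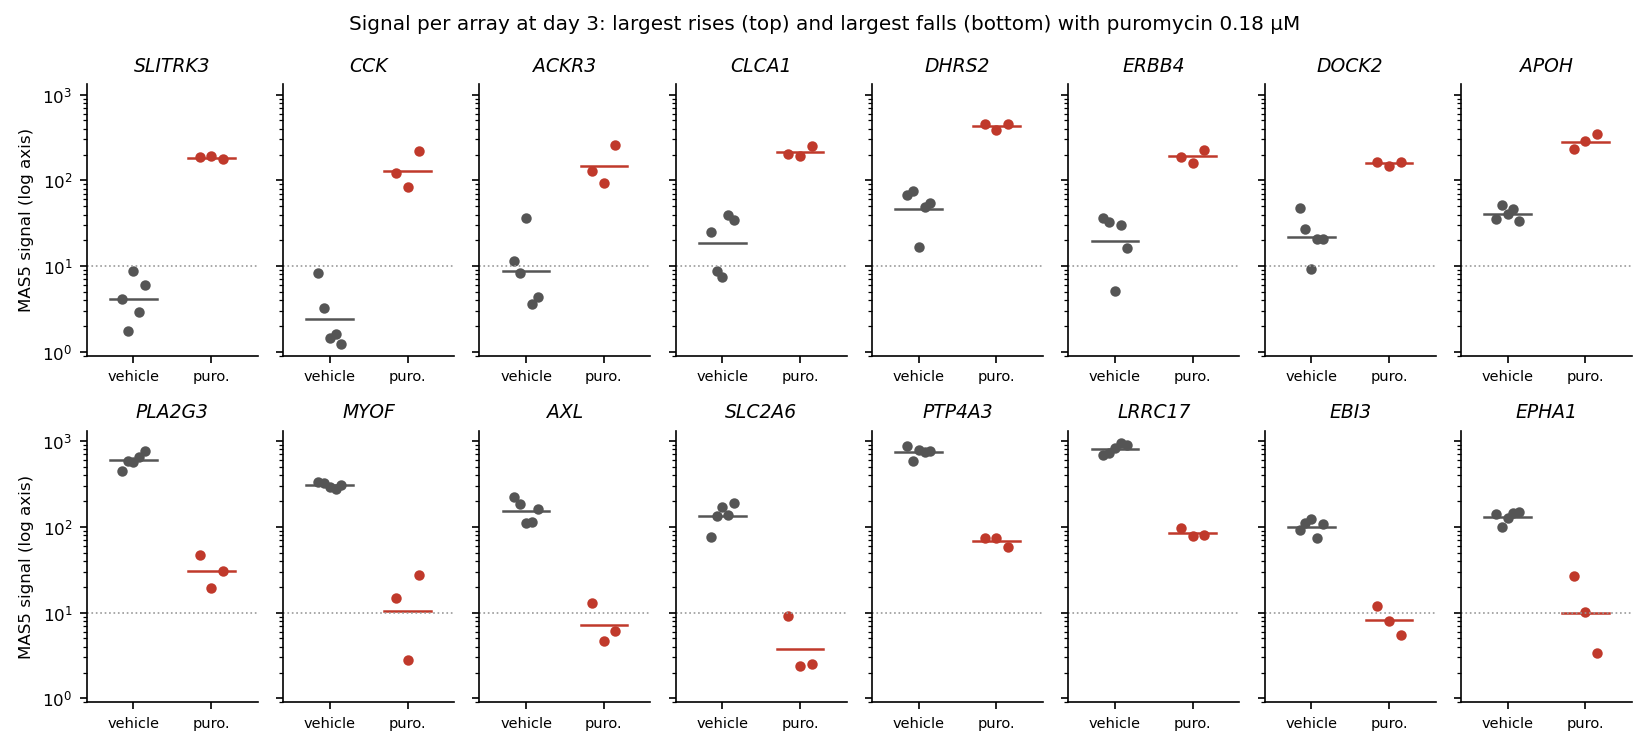
Signal on each array at day 3 (log axis, MAS5 units) for the 8 largest rises (top) and 8 largest falls (bottom): grey points are the 5 vehicle arrays, red points the 3 puromycin arrays, horizontal lines geometric means, and the dotted line the floor of 10. In each panel the puromycin arrays lie entirely on 1 side of the vehicle arrays, which is in part given by the choice of genes for their size on these arrays. SLITRK3 and CCK have every vehicle array under the floor.

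PLA2G3, a secreted phospholipase A2, read 47.3, 19.4 and 30.3 with puromycin and 451, 583, 566, 650 and 770 with vehicle, 19.7-fold lower (log2 change -4.30 ± 0.46, adjusted p = 4.9e-10). MYOF, a ferlin that works in membrane repair, read 14.9, 2.82 and 27.5 against 273 to 335 (-4.26 ± 0.51, adjusted p = 9e-09), and a second, brighter probe set fell from a mean of 812 to 104 (-2.96). AXL, the receptor tyrosine kinase for GAS6, read 13.1, 4.66 and 6.07 against 110 to 224, with a puromycin mean under the floor (-3.81 ± 0.51, adjusted p = 1.5e-07).

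PTP4A3, the phosphatase PRL-3, read 74.1, 74.7 and 58.2 against 582 to 869, 10.8-fold lower, and each of its 3 probe sets fell (log2 changes -3.43, -3.39 and -1.73). LRRC17, a secreted leucine-rich repeat protein, read 96.2, 77.8 and 79.8 against 691 to 943 (9.62-fold, adjusted p = 2.1e-19). LIN28A, the RNA-binding protein that blocks maturation of let-7, read 767, 498 and 301 against 3370 to 4620, 7.78-fold lower (adjusted p = 2.9e-12). LGALS1, galectin-1, was the brightest of the 15: 1120, 860 and 618 against 4880 to 6720, 7.08-fold lower (-2.82 ± 0.19, adjusted p = 5.4e-16).

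The remaining large falls were SLC2A6 (log2 change -3.76), EBI3 (-3.23), EPHA1 (-3.23), ARRB1 (-3.16), ICAM1 (-2.89), VAV1 (-2.88), BGN (-2.75) and COL1A1 (-2.74), with adjusted p-values up to 0.00038 (BGN). SLC2A6 and EBI3 had puromycin means under the floor (4.68 and 8.55), so their true falls may be larger than fitted. All 4 probe sets of ARRB1 fell, but the value given is of the dimmest, and the brighter ones fell by 0.78 to 1.13. All 15 genes had puromycin arrays below every vehicle array, where 21.6% of all probe sets had groups that did not overlap in either direction. They too were chosen for their size on these arrays, so that such separation is in part given by the choice. All 15 kept their call under every alternative setting. VAV1 and EBI3 are otherwise best known from blood cells, but so are genes among the 15 largest rises: DOCK2 (2.82), PAX5 (2.60) and MARCHF1 (2.77). The summed signal of the 17 blood markers was 249 to 252 on the puromycin arrays and 137 to 731 on the vehicle arrays. The part of blood transcripts in these rises and falls was not tested.

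Of the collagens and matrix proteins, 20 of 30 measured genes fell and none rose. Here and below each gene is represented by its brightest probe set, and over all 11882 genes taken that way 5.77% rose and 8.77% fell. The list's median log2 change was -0.665, beside -0.01 over all probe sets. COL1A1, the α1 chain of type I collagen, read 144, 121 and 90.4 with puromycin and 1170, 1080, 664, 534 and 638 with vehicle. Its vehicle arrays differed by plate part, and against rows A-F alone its log2 change was -3.27 in place of -2.74. COL1A2, the partner chain, read 1710, 1180 and 1190 against 4520 to 5460 (log2 change -1.86 ± 0.14, adjusted p = 3.5e-15).

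TNC, tenascin-C, read 602, 545 and 315 against 2400 to 2620 (log2 change -2.42 ± 0.19, adjusted p = 1.9e-14). COL5A1 fell by 2.21 on the log2 scale, BGN (biglycan, by its brighter probe set) by 2.21, COL18A1 by 2.12, VCAN (versican) by 1.96 and LOX, the lysyl oxidase that cross-links collagen, by 1.77. FN1, fibronectin, was almost level at 13300, 15700 and 11800 against 15000 to 16600, near the cap of 16000, and its fall of 0.21 was no longer called after the shift to a common median (adjusted p = 0.9) or without the cap (adjusted p = 0.15). Of the 20 calls, 13 held under every setting except the one that added the array labelled puromycin 0.09 μM day 5 replicate 3, and 9 held there too. Fewer collagen-producing cells and less collagen mRNA per cell cannot be told apart in such bulk RNA.

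Of the 18 measured genes of cholesterol synthesis and uptake, 12 fell and all 18 had a change below 0, with a median of -0.738. LSS, lanosterol synthase, read 1520, 1390 and 1350 against 2310 to 3630 (log2 change -1.01 ± 0.16, adjusted p = 5.1e-06). DHCR7, which makes cholesterol from its last precursor, read 1920, 1480 and 1260 against 2820 to 3260 (-0.97 ± 0.16, adjusted p = 1.4e-05), and HSD17B7 read 1550, 1350 and 1280 against 2060 to 2780 (-0.78 ± 0.14). The count depended on the processing: 8 fell after quantile normalization, 4 after the shift to a common median and 7 against the vehicle arrays of rows A-F. LSS, DHCR7 and HSD17B7 were called in each of those settings.

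**Figure D2:**
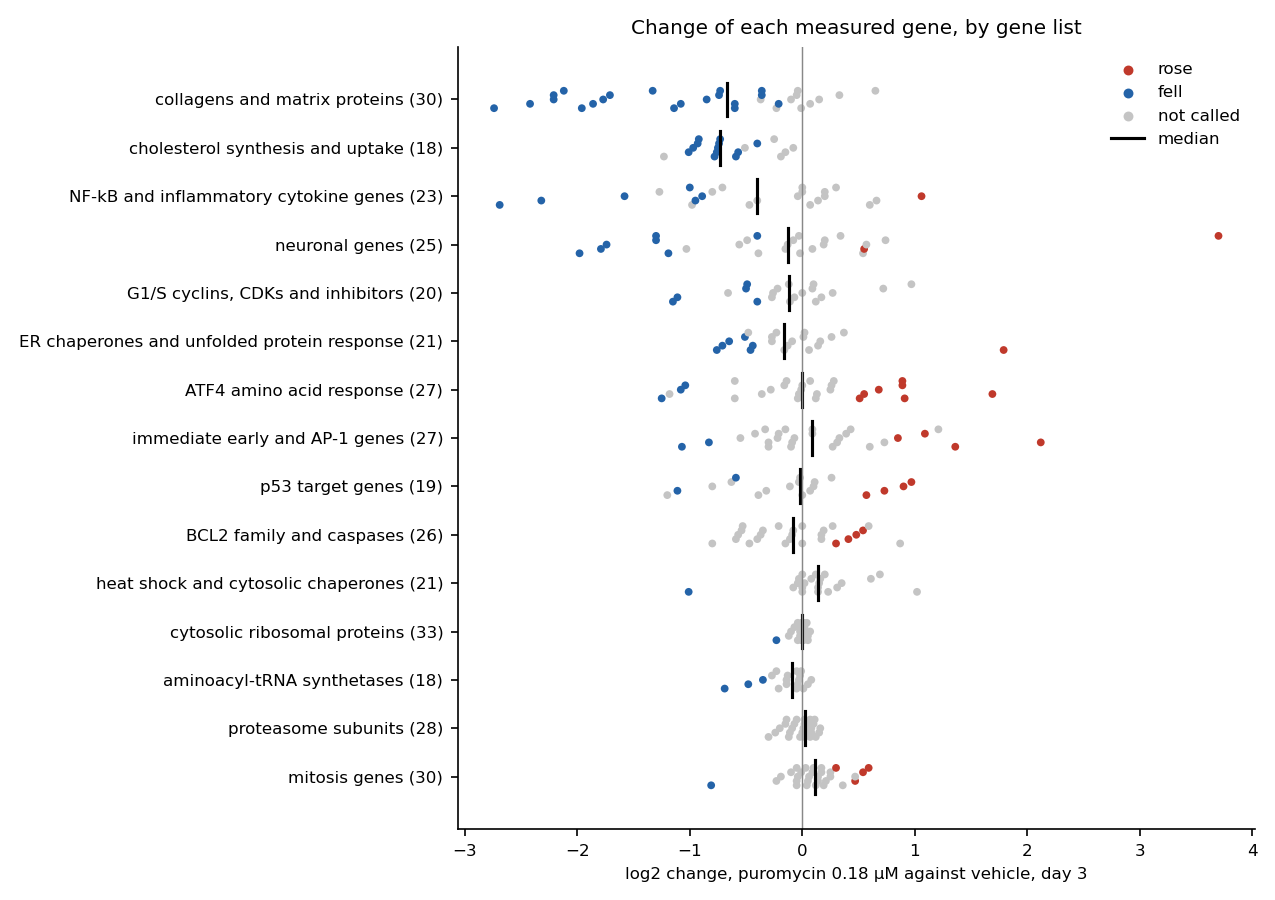
log2 change of every measured gene with puromycin 0.18 μM at day 3, by gene list (number measured in brackets): each point is a gene, coloured by whether it rose, fell or was not called, and black bars are medians. Collagens and matrix proteins (median -0.665) and cholesterol genes (-0.738) lie to the left, and proteasome subunits cluster at 0, as do cytosolic ribosomal proteins, most of which lie over the cap of 16000.

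The stress response genes divided. In the ATF4 amino acid response list, 7 of 27 genes rose and 3 fell, with a median of 0.00. DDIT3, the pro-apoptotic transcription factor CHOP, read 2820, 2700 and 2980 with puromycin and 985, 1110, 756, 766 and 822 with vehicle (log2 change 1.69 ± 0.17, adjusted p = 7.7e-11). STC2 (0.91), CEBPB (0.55) and both chains of the LAT1 amino acid exchanger, SLC3A2 (0.89) and SLC7A5 (0.68), rose as well, and ATF3 (0.89) rose but not against the vehicle arrays of rows A-F (adjusted p = 0.44). CEBPG, at 0.51, lost its call there too (adjusted p = 0.19). In the opposite direction went CBS, cystathionine β-synthase (-1.25 ± 0.22, adjusted p = 2.4e-05), DDIT4 (-1.04 ± 0.22, adjusted p = 0.00052) and CHAC1, a glutathione-degrading enzyme (308, 243 and 130 against 367 to 640, -1.08 ± 0.29, adjusted p = 0.0071). CHAC1 lost its call with plate part as a block (adjusted p = 0.081). ATF4 itself, whose control is mainly of translation, had a change of 0.12 (adjusted p = 0.5), and asparagine synthetase, ASNS, one of -0.28 (adjusted p = 0.61).

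Of the 21 measured genes of ER chaperones and the unfolded protein response, 6 fell and 1 rose. PPP1R15A, the eIF2α phosphatase subunit GADD34 that ends the integrated stress response, read 1530, 1480 and 1770 with puromycin, 979 and 767 on the vehicle arrays of rows A-F and 266 to 354 on those of rows G-H. Its log2 change was 1.79 ± 0.28 over all vehicle arrays (adjusted p = 3.1e-06) and 0.88 against rows A-F (adjusted p = 0.00093). It lost its call when the fit held only the 8 arrays (adjusted p = 0.055). PDIA4 fell by 0.65 (adjusted p = 1.5e-05) and HYOU1 by 0.46 (adjusted p = 0.00012), and XBP1, SDF2L1, CALR and MANF also fell. After the shift to a common median 2 of the 6 remained called, and against the vehicle arrays of rows A-F the list held 2 rises and 3 falls. Only the fall of PDIA4 held in every setting besides the one with all 68 arrays. A second, dimmer probe set of PDIA4 was not called and had a change of 0.25 (adjusted p = 0.57). XBP1 had a change of -0.71 against rows A-F (adjusted p = 0.13) and of -0.45 without puromycin replicate 3 (adjusted p = 0.54), MANF one of -0.13 against rows A-F (adjusted p = 0.8), and CALR lost its call after quantile normalization (adjusted p = 0.088).

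Of 21 heat shock and cytosolic chaperone genes none rose and 1 fell, while 3 rose after quantile normalization and 3 against the vehicle arrays of rows A-F. That 1 was HSPB1, the small heat shock protein HSP27, at 2660, 2670 and 2100 with puromycin and 4550 to 5390 with vehicle (log2 change -1.01 ± 0.09, adjusted p = 7.8e-12), lower in all 3 arrays and under every setting. HSPA1A, the stress-inducible HSP70, read 7870, 9330 and 9690 against 4100, 4920, 6620, 6350 and 6040. Its log2 change of 0.69 missed the threshold over all vehicle arrays (adjusted p = 0.051) and passed it after quantile normalization (adjusted p = 0.036) and against the vehicle arrays of rows A-F (0.99, adjusted p = 7.5e-05), and its near-identical copy HSPA1B cannot be separated from it with certainty. A second HSPA1A probe set, which does not represent the gene in the count of the list, rose from a mean of 2790 to 6050 (1.15 ± 0.27, adjusted p = 0.0019).

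Promoter sequences of 5 genes are shown because, of genes that share an element, some were called and others were not, with JUN, whose rise is given further on, beside the chaperones. They are 120 bases of the RefSeq promoter windows (GRCh38.p14, from 250 bases before to 50 after the gene start), read 5′ to 3′ on the gene's strand. Capitals mark TGATGNAA, the C/EBP-ATF element that ATF4 binds, in the first pair and GAANNTTC, the core of a heat shock element, in the other 3, on either strand. The CHAC1 stretch is chr15:40953221-40953340 (+ strand), ASNS chr7:97872417-97872536 (- strand), JUN chr1:58784138-58784257 (- strand), HSPB1 chr7:76302431-76302550 (+ strand) and HSPA1A chr6:31815377-31815496 (+ strand).
CHAC1: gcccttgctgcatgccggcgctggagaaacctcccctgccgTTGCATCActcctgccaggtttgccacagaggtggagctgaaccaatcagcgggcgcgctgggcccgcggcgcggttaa
ASNS: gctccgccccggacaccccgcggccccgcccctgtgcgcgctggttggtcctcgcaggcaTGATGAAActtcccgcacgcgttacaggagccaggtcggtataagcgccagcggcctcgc
JUN: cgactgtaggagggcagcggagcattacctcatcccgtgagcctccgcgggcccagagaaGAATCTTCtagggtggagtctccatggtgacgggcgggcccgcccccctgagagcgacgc
HSPB1: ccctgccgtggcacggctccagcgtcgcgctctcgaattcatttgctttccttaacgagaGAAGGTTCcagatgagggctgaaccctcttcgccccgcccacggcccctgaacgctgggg
HSPA1A: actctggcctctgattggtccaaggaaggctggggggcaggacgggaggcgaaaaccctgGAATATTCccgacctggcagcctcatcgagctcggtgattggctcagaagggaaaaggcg

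TGATGNAA was found in 3.62% of all 35116 promoter windows and in those of 7 of the 23 ATF4 list genes with a window. Of these 7, ATF3, CEBPG and SLC3A2 rose, CHAC1 fell, and ASNS, SLC1A5 and SLC7A1 had changes between -0.28 and 0.00 that did not pass. GAANNTTC was found in 6.77% of all windows and in 12 of 19 heat shock list genes, of which HSPB1 fell and the other 11 did not pass. CACGTG, the E-box, was in 7.26% of all windows and in 3 of 16 cholesterol genes (INSIG1, LSS and SC5D), and TGANTCA, the AP-1 site, in 7.71% of all windows and 1 of 19 immediate early genes (FOSL2). A match of letters is a description of the window only.

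In the list of immediate early genes and AP-1 subunits there were 4 rises and 2 falls among 27, with 6 and 2 after quantile normalization, 8 and 2 after the shift to a common median and 4 and 5 against rows A-F. JUN, a subunit of AP-1, read 2230, 3610 and 3090 with puromycin and 1240, 821, 504, 486 and 555 with vehicle, where the higher 2 vehicle values are those of rows A-F. Its log2 change was 2.12 ± 0.24 (adjusted p = 2.7e-09), and 1.53 against rows A-F (adjusted p = 4e-05). Its other 2 probe sets rose as well. MAFF, a small MAF protein, read 3100, 2910 and 2890 against 1170 to 1740 (1.09 ± 0.19), KLF6 rose by 0.85, and FOS read 1290, 1140 and 905 against 313 to 612 (1.36 ± 0.44, adjusted p = 0.032), a call lost in the fit with only puromycin and vehicle arrays (adjusted p = 0.1). EGR3 (-1.07) and IER3 (-0.83) fell. EGR3 lost its call against rows A-F (adjusted p = 0.057).

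NF-κB and inflammatory genes included 6 falls and 1 rise among 23. CCL2, the monocyte chemokine, read 53.9, 42.1 and 47.5 against 239 to 379 (log2 change -2.69 ± 0.40, adjusted p = 1.3e-06), and ICAM1, by its brighter probe set, read 39.0, 55.2 and 30.1 against 178 to 240 (-2.32 ± 0.35, adjusted p = 1.4e-06). IL11, IL1B, NFKB1 and REL fell, and CCL20, dim in both groups, rose (22.1 against 2.12). The rise of CCL20 and the fall of IL11 were lost at a floor of 32. Of 24 interferon-stimulated genes IFIT1 (-2.33, adjusted p = 9.5e-07) and ISG15 (-0.73, adjusted p = 3.8e-06) fell.

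Of 33 cytosolic ribosomal protein genes, parts of the machinery that puromycin acts on, 1 fell, RPL10A, by 0.23 (adjusted p = 0.012, lost after the common-median shift). In 23 of the 33 both group means lay at or over the cap of 16000, where the capped values hold no difference. Without the cap 1 of the 33 fell and none rose, with a median of 0.0323, and how far signals that bright still follow the amount of RNA was not tested. Of 26 ribosome biogenesis genes 1 fell (NHP2, by 0.28) and of 30 translation factors EIF5 rose by 0.77 (adjusted p = 0.00016) while EIF2S3 and EIF4EBP1 fell. The falls of NHP2 (adjusted p = 0.75) and EIF4EBP1 (0.57) were lost after the common-median shift, and that of EIF2S3 against rows A-F (0.11). No proteasome subunit of 28 was called by limma, and 0 had an unadjusted p under 0.05, while 2 rose and 1 fell against rows A-F. A second, dimmer probe set of PSMB2, which does not represent the gene in that count, fell from a mean of 464 to 124 (-1.94 ± 0.54, adjusted p = 0.011). Of 18 aminoacyl-tRNA synthetases VARS1 (-0.69), QARS1 (-0.48) and WARS1 (-0.35) fell. QARS1 (adjusted p = 0.076) and WARS1 (0.43) lost their calls after the common-median shift. Of 9 genes of nonsense-mediated decay, which needs translation, and its substrates, GADD45A (0.97), UPF1 (0.97) and UPF2 (0.46) rose and UPP1 (-0.66) fell. The call of UPP1 was lost after quantile normalization (adjusted p = 0.1) and after the common-median shift (0.17), and against rows A-F that list held 2 rises and 1 fall. Mitochondrial ribosomal proteins (1 up and 4 down of 30), respiratory chain genes (1 and 2 of 30), and ubiquitin and autophagy genes (2 and 0 of 17, GABARAPL1 by 1.32 and ATG5 by 0.39) held few calls. None of 12 ABC drug transporters was called by limma, with 1 at an unadjusted p under 0.05.

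Genes of cell cycle and cell death moved in both directions. CDKN1A, the p53 target and CDK inhibitor p21, read 263, 230 and 233 with puromycin and 461 to 609 with vehicle (log2 change -1.11 ± 0.18, adjusted p = 5.4e-06), and CCNE1, cyclin E1, read 343, 275 and 265 against 588 to 749 (-1.15 ± 0.21, adjusted p = 4.9e-05). The G1/S list had 5 falls and no rise among 20, and the mitosis list 4 rises and 1 fall among 30. After the shift to a common median the G1/S list held 2 falls, and against rows A-F the mitosis list held 2 rises and no fall. The 1 fall was CDK1 (-0.81, adjusted p = 0.027), with a change of -0.15 without puromycin replicate 3 (adjusted p = 0.95). Its other probe sets were level (-0.09 and -0.04) and were not called. Among 19 p53 targets GADD45A (5010, 4970 and 5520 against 2320 to 3040), AEN (0.90), PPM1D (0.73) and FAS (0.57) rose while CDKN1A and CCNG1 (-0.59) fell. In the BCL2 family and caspases 4 of 26 rose: PMAIP1, the BH3-only protein NOXA (0.54, adjusted p = 0.0032), MCL1, which NOXA binds (0.48, adjusted p = 0.0064), DIABLO (0.41) and BIRC5 (0.30). The median of that list was -0.0847, with 15 of its 26 changes below 0. Larger changes in BAX (-0.81 and -0.80 by its brighter probe sets), HRK (0.87), BCL2L11 (0.59) and CASP2 (-0.59) did not pass. DNA replication genes had 1 rise and 1 fall of 36, with 3 and 4 after quantile normalization and 0 and 3 against rows A-F.

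Neuronal genes included 7 falls and 2 rises among 25. GAP43, the growth cone protein, read 501, 455 and 297 against 1460 to 1870 (log2 change -1.98 ± 0.36, adjusted p = 5e-05), MAPT, tau, read 236, 275 and 161 against 596 to 932 (-1.79 ± 0.18, adjusted p = 1.3e-10) and NCAM1 read 227, 282 and 216 against 597 to 1020 (-1.74 ± 0.21, adjusted p = 1.9e-08). The rises were CCK and SCG2 (0.55). Histone genes had 5 rises and 1 fall of 17, led by H2BC5 (2990, 3140 and 4010 against 1320 to 1430, 1.27 ± 0.14), and 4 of those 6 calls were lost with plate part as a block. In polyamine metabolism SMOX, spermine oxidase, rose by 1.41 ± 0.15 (adjusted p = 2.3e-10) and AMD1 by 0.55, while SRM, SMS and ARG2 fell, among 12. The NRF2 and glutathione list had 3 rises, GCLC (0.79), GCLM (0.82) and SOD1, and 4 falls of 23, the glycolysis list 2 rises and 4 falls of 22, and the lysosomal list 1 rise of 17 (TPP1).

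EWS/FLI target genes did not move toward the EWS/FLI off state on balance. The study's 66 probe sets that go up with EWS/FLI knockdown and 77 that go down were chosen on knockdown samples that are not among these arrays. Of the 66, 8 rose and 12 fell (median -0.179), and of the 77, 11 rose and 9 fell (median 0.0376). The split moved with the processing: of the 66, 9 rose and 10 fell after quantile normalization, 12 and 11 after the shift to a common median and 5 and 16 against rows A-F, and of the 77 the counts were 16 and 7, 17 and 6, and 10 and 9 in the same order. An EWS/FLI off score, taken per array as the average log2 signal of the 66 less the average of the 77, was -2.12, -2.17 and -2.36 on the puromycin arrays and -1.97 to -1.83 on the vehicle arrays, a difference of -0.32, where a positive difference would lie toward knockdown. That difference ran from -0.37 to -0.25 when each array was left out in turn. On the same scale the doxorubicin arrays lay between -1.025 and -0.844 and the ARA-C arrays between -1.395 and -1.25.

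Members of both sets moved each way. Of the 66, JUN (1.85 by the set's probe set), HSD17B2 (1.54) and P4HA2 (1.44) rose and GLRX (-1.88), EMP1 (-1.81), S100A4 (-1.68), IL4R (-1.65) and APOLD1 (-1.47) fell. Of the 77, CCK (3.70), CES1, a liver-type carboxylesterase (7160, 6820 and 10200 against 1620 to 2110, 2.08 ± 0.33), MYOM2 (1.90), ENTPD3 (1.90) and TOX3 (1.69) rose, and ACP3 (-1.43) and GAS1 (-1.30) fell. In the genes of the study's screening signature, SP100 (46.8, 14.8 and 24.7 against 62.5 to 126, log2 change -1.69 ± 0.32, adjusted p = 9.7e-05) and PDGFA (-1.56 ± 0.39, adjusted p = 0.0039), both of which go up with knockdown, fell, and FCGRT, which goes down with knockdown, rose by 0.75 (adjusted p = 0.036). The call of PDGFA was lost with plate part as a block (adjusted p = 0.054) and that of FCGRT against rows A-F (adjusted p = 0.083). IGFBP7 (0.55), ATXN1 (-0.52), HSPB3 (0.33), CXCL8 (-0.80), FHL2 (0.10), PPP1R1A (0.77), CDH12 (1.16), SSX2 (0.09), GLI1 (-0.72) and SSX3 (0.04) did not pass.

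Transcripts of the fusion partners were level. FLI1 read 3480, 2670 and 3430 against 2560 to 3650 (log2 change 0.07 ± 0.17, adjusted p = 0.97) and EWSR1 4490, 4610 and 5120 against 3900 to 5110 (0.10 ± 0.10, adjusted p = 0.73), and in neither did the groups separate. Whether these probe sets read the fusion transcript was not examined here. Of genes given by other work as EWS/FLI-activated 4 of 29 rose and 2 fell, and of those given as repressed none of 18 rose and 7 fell (9 against rows A-F), with TAGLN, transgelin, at 111, 97.4 and 101 against 368 to 1430 (log2 change -2.62 ± 0.30, and -3.52 against rows A-F). Of 12 Ewing sarcoma markers LBH (1.47 ± 0.20) and STEAP1 (0.46) rose and none fell. Of the marker lists of other cell types, blood markers had no call by limma (1 of 17 at an unadjusted p under 0.05), while KRT8 (-0.88) and KRT18 (-0.19) of the 14 epithelial and CLDN5, KDR and TEK of the 9 endothelial markers, whose medians were under 100, fell. Against rows A-F 1 of the 9 fell, and CLDN5, with every puromycin array under the floor, changed from -1.94 to -0.95 (adjusted p = 0.37).

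**Figure D3:**
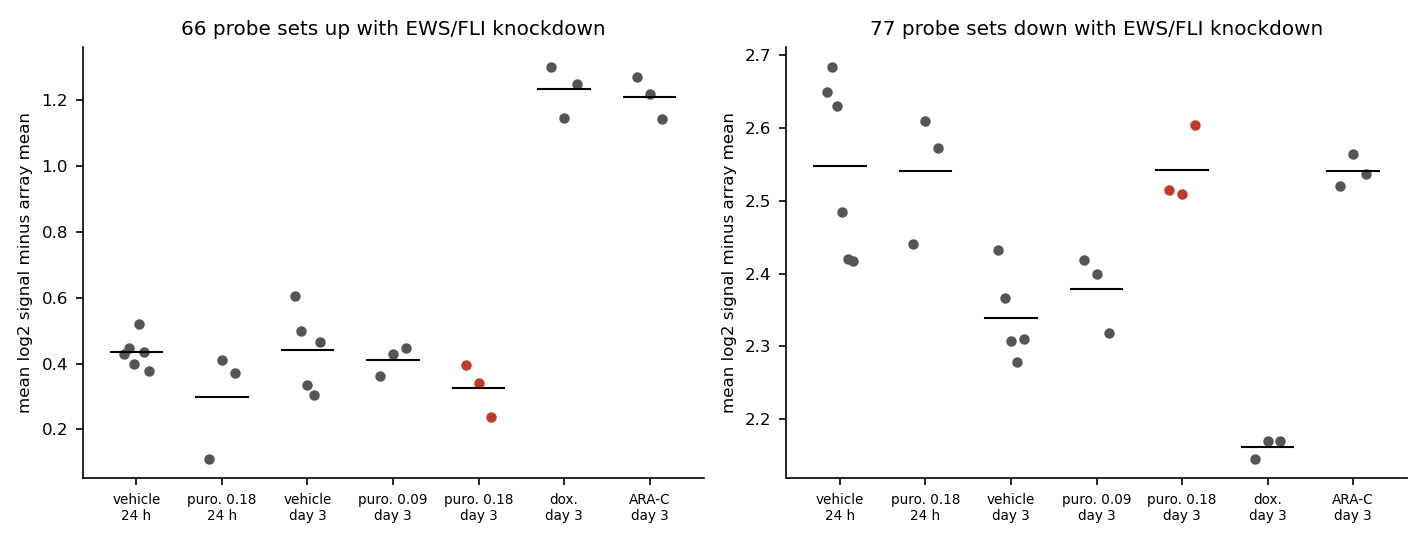
Mean log2 signal of the 66 probe sets up (left) and the 77 down (right) with EWS/FLI knockdown, each minus the mean of its array, per array and group: red points are puromycin 0.18 μM at day 3, grey points the other groups, and bars group means. The 66 probe sets average 0.325 with puromycin, 0.442 with vehicle, 1.233 with doxorubicin and 1.211 with ARA-C at day 3.

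The dose was compared directly with the 3 arrays of puromycin 0.09 μM at day 3, where 79 probe sets differed (0.356%), 32 higher and 47 lower at 0.18 μM. The 15 rises and 15 falls were chosen for their size at 0.18 μM, which favours smaller changes at the other dose. The difference between the doses passed for 6 of the 15 rises and 3 of the 15 falls, and these counts are given as a description. OLFM1 was 1.41 ± 0.29 higher on the log2 scale at the higher dose (adjusted p = 0.00037), with changes of 1.35 and 2.76 against vehicle, and AMPD1 1.40 higher (adjusted p = 0.00035), with changes of 1.31 and 2.71. CCK (2.25), ACKR3 (2.67), APOH (1.62) and RASSF1 (1.42) completed the 6, and EFNB2, an ephrin ligand outside the 15, was 1.55 higher (adjusted p = 0.0036). OLFM1 and AMPD1 lost this call in the fits of all 68 arrays (adjusted p = 0.26 and 0.59) and of only the arrays of the groups compared (0.14 and 0.15), and kept it in the other alternatives. The call was lost for ACKR3 after quantile normalization (adjusted p = 0.07), at a floor of 1 (0.46) and with the replicate block (0.054). CCK lost it after quantile normalization (0.074) and at a floor of 1 (0.41), and APOH at a floor of 1 (0.17) and with the replicate block (0.053). With only puromycin and vehicle arrays ACKR3 (0.13), CCK (0.051) and APOH (0.21) lost it too. ACKR3, CCK, APOH and RASSF1 all lost it with only the arrays of the groups compared (adjusted p from 0.21 to 0.27). Each of these 4 also lost it without puromycin 0.09 μM replicate 3 (adjusted p from 0.055 to 0.54) and without puromycin 0.18 μM replicate 3 (0.3 to 0.5). In the fit of all 68 arrays the 4 lost it as well. EFNB2 lost its call in the fits of all 68 arrays (adjusted p = 0.46), of only puromycin and vehicle arrays (0.058) and of only the arrays of the groups compared (0.25). Without puromycin 0.18 μM replicate 3 the call of EFNB2 was lost too (adjusted p = 0.073).

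Lower at the higher dose were LIN28A (log2 difference -1.82, adjusted p = 0.00035), LRRC17 (-1.28, adjusted p = 0.00025), PTP4A3 (-1.54 by its second probe set), VCAN (-1.15) and ADAM19 (-1.11). Each of them lost its call with only the arrays of the groups compared (adjusted p from 0.18 to 0.26). In the fit of all 68 arrays LIN28A (adjusted p = 0.79), VCAN (0.6), LRRC17 (0.06) and ADAM19 (0.06) lost it as well. Without puromycin 0.18 μM replicate 3 so did LIN28A (adjusted p = 0.053), VCAN (0.068) and ADAM19 (0.11). COL1A1 differed by -0.55 (adjusted p = 0.52), with falls of 2.19 at 0.09 μM and 2.74 at 0.18 μM. Of the 30 matrix genes 5 were lower at 0.18 than at 0.09 μM, and none of the 18 cholesterol genes differed. The count of 79 was not stable. It was 6 with only the arrays of the groups compared, none of them among the 79. After quantile normalization it was 185 (51 higher and 134 lower), of which 69 were among the 79. It was 12 when puromycin 0.09 μM replicate 3 was left out. Without replicate 2 of that dose there were 17, and without replicate 1 121. Without puromycin 0.18 μM replicate 3 there were 9.

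The time course was tested as the change at day 3 minus the change at 24 h, each against its own vehicle arrays, and 325 probe sets differed (1.46%), 76 with a higher and 249 with a lower difference (187 and 312 after quantile normalization, 101 and 136 after the shift to a common median). The 30 large changes were chosen at day 3, so that smaller values at 24 h are in part given by the choice. On puromycin 24 h replicate 1 the log2 3′ to 5′ ratios were 3.17 for ACTB and 1.13 for GAPDH, against 1.05 to 1.17 and 0.236 to 0.335 on the other 2 arrays of that group. Without it 302 probe sets differed (55 with a higher and 247 with a lower difference), of which 213 were among the 325. PLA2G3 had a log2 change of -1.31 at 24 h and -4.30 at day 3 (difference -2.99, adjusted p = 0.0054), while its vehicle mean rose from 77.1 at 24 h to 604 at day 3. LGALS1 fell by 0.69 and then by 2.82 (difference -2.13, adjusted p = 1.3e-06), LRRC17 by 1.76 and 3.27 (difference -1.50, adjusted p = 0.00023), and COL1A1 by 1.38 and 2.74 (difference -1.36, adjusted p = 0.0037). HSPB1 had a change of 0.03 at 24 h and -1.01 at day 3 (difference -1.05, adjusted p = 1e-06).

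Higher at day 3 were ACKR3 (0.50 and then 3.45, difference 2.95, adjusted p = 0.044, and 2.42, adjusted p = 0.18, without 24 h replicate 1), OLFM1 (1.35 and 2.76, difference 1.41, adjusted p = 0.0033), RASSF1 (1.05 and 2.58, difference 1.53, adjusted p = 0.031) and SLIT2, an axon guidance ligand (0.27 and 2.39, difference 2.12, adjusted p = 0.0031). JUN rose by 0.23 at 24 h and 2.12 at day 3 (difference 1.88, adjusted p = 0.0006) and PPP1R15A, by its second probe set, had changes of -0.56 and 1.94 (difference 2.50, adjusted p = 0.0051). IFIT1 had changes of 0.07 and -2.33 (difference -2.39, adjusted p = 0.0022). With vehicle arrays of 1 plate part only, the differences of ACKR3 (adjusted p = 0.08), IFIT1 (0.07), PPP1R15A (0.055), MACROD1 (0.088), HNRNPA0 (0.31) and SLC39A7 (0.35) were no longer called. The other large differences of time were SLC2A6 (-2.83), PTP4A3 (-2.41 by its second probe set), MACROD1 (-2.32), HNRNPA0 (2.61) and SLC39A7 (2.30). SLC2A6, whose day 3 puromycin mean was under the floor, had a difference of -1.43 at a floor of 32 (adjusted p = 0.16) and lost its call after the shift to a common median (adjusted p = 0.056). A brighter probe set of HNRNPA0 fell at day 3 (-0.37, adjusted p = 0.038) and had a difference of -0.11 (adjusted p = 0.96). THBS1, thrombospondin-1, had changes of -3.86 at 24 h and -2.93 at day 3 by a dim probe set with a puromycin mean of 3.75.

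**Figure D4:**
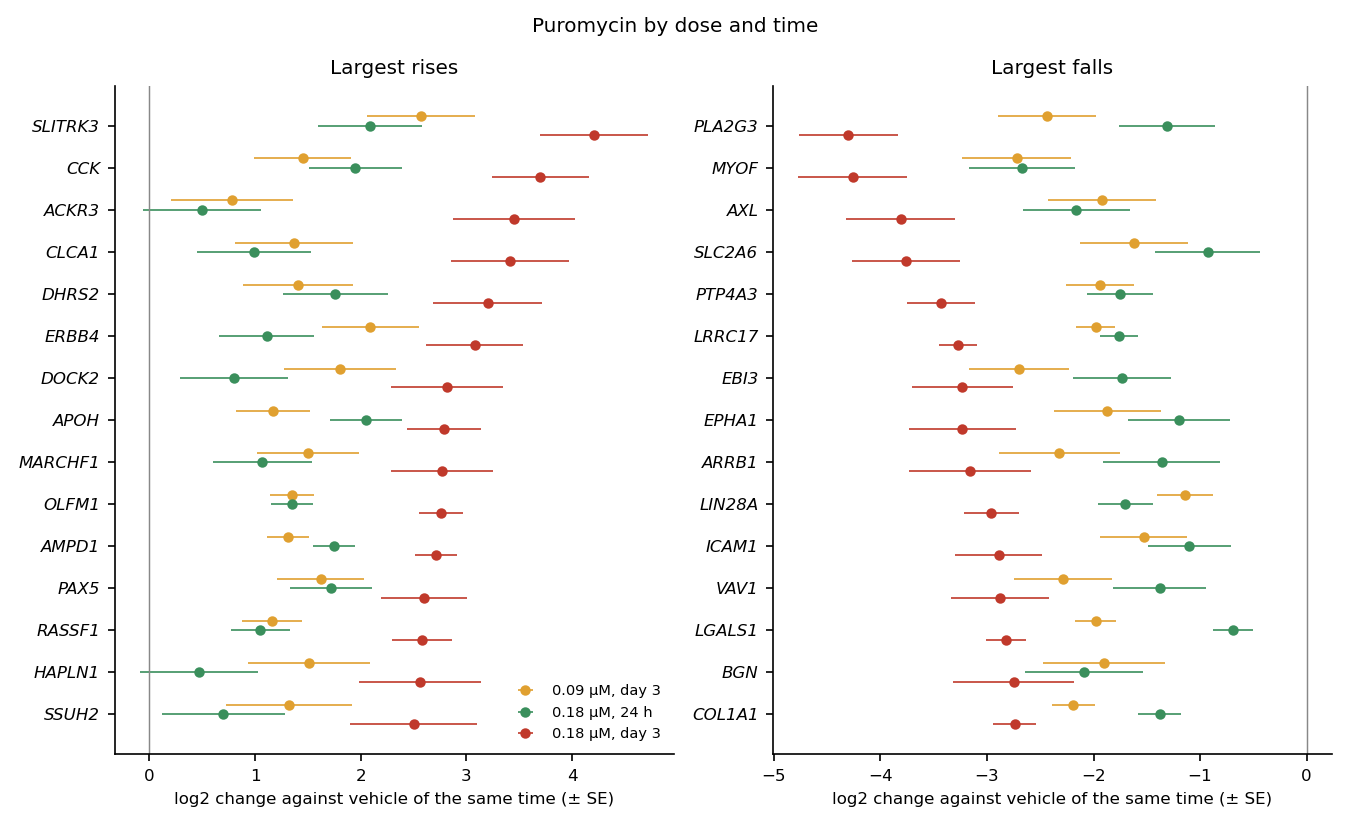
log2 change against vehicle of the same time for the 15 largest rises (left) and falls (right), with standard errors: yellow is puromycin 0.09 μM at day 3, green 0.18 μM at 24 h and red 0.18 μM at day 3. The genes were chosen by the red values, so that their place farthest from 0 is in part given by the choice, and both day 3 doses share their vehicle arrays.

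Puromycin and doxorubicin at 2 times their EC50 were compared directly at day 3, where 4723 probe sets differed (21.3%), 2079 higher and 2644 lower with puromycin (3207 and 1819 after the shift to a common median). Doxorubicin intercalates into DNA and poisons topoisomerase II. The matrix genes separated the agents: 23 of 30 were lower and 1 higher with puromycin. COL1A1 averaged 119 ± 26.8 (SD, n = 3) with puromycin, 817 ± 286 (n = 5) with vehicle and 4430 ± 48.9 (n = 3) with doxorubicin, a log2 difference of -5.25 between the 2 agents (adjusted p = 8.9e-25). ICAM1 averaged 16.3 ± 7.49, 122 ± 33.6 and 1190 ± 210 in the same order (difference -6.21, adjusted p = 7e-16), and AXL 7.94 ± 4.52, 159 ± 48.4 and 527 ± 37.6 (-5.59, adjusted p = 4.2e-11). S100A10 (-6.48), PTX3 (-5.55) and THBS1 (-5.41) differed by as much.

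CDKN1A fell by 1.11 with puromycin and rose by 1.17 with doxorubicin (difference -2.28, adjusted p = 2.2e-13). Of the EWS/FLI-repressed genes from other work 16 of 18 were lower with puromycin than with doxorubicin, and of the signature genes that go up with knockdown 5 of 7. Higher with puromycin were CCK (3.70), DHRS2 (4.13, adjusted p = 1.6e-07), CER1 (4.39), RAC3 (3.66) and TDRD3 (3.55). CER1, RAC3 and TDRD3 themselves did not differ from vehicle with puromycin at the threshold, with changes of -0.86, -0.47 and 0.65. Of the cholesterol list 11 of 18 were higher with puromycin than with doxorubicin, and of the ATF4 list 15 of 27, with none lower in either. ASNS had a change of -0.28 with puromycin and -2.12 with doxorubicin (difference 1.84, adjusted p = 1.4e-07).

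Other changes were of like size with both agents. PAX5 rose by 2.60 and 2.79 (difference -0.19 ± 0.46, adjusted p = 0.88), CLCA1 by 3.41 and 3.86 (difference -0.45 ± 0.63, adjusted p = 0.74), DDIT3 by 1.69 and 1.77 (difference -0.08 ± 0.19, adjusted p = 0.88) and CES1 by 2.08 and 1.91 (difference 0.17 ± 0.37, adjusted p = 0.87). PLA2G3 had changes of -4.30 and -5.28 (difference 0.99 ± 0.51, adjusted p = 0.19). A p that misses the threshold does not show these to be equal, and both changes are measured against the same vehicle arrays.

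With ARA-C, a nucleoside analogue that stops DNA synthesis, at 0.34 μM, 3938 probe sets differed from puromycin at day 3 (17.7%), 1465 higher and 2473 lower with puromycin (2131 and 2286 after quantile normalization, 3107 and 1596 after the shift to a common median). The ARA-C arrays lay in rows G-H and the puromycin arrays in rows A-F, so that plate part and compound cannot be told apart in this comparison except through the vehicle arrays, and with plate part as a block 3240 differed. Of the matrix genes 24 of 30 were lower with puromycin and none higher. COL1A1 averaged 2720 ± 277 with ARA-C (difference -4.54, adjusted p = 4.8e-22) and ICAM1 907 ± 43.6 (-5.83, adjusted p = 6.5e-15). DLK1 (-4.97) and SELENOP (-4.83) were lower too, as were CLDN5 (-5.73) and SLC2A6 (-4.94), whose puromycin means of 5.57 and 4.68 lie under the floor, so that these 2 differences are measured against it. DLK1, a Notch-like ligand, rose by 4.08 with ARA-C and fell by 0.89 with puromycin.

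Higher with puromycin than with ARA-C were DHRS2 (4.51), ACKR3 (3.27), UTP18 (3.14, where a brighter probe set differed by 0.34, adjusted p = 0.084), HAPLN1 (2.97) and PEX11A (2.97). RASSF1 averaged 1380 ± 263 with puromycin, 231 ± 36.4 with ARA-C and 488 ± 28.4 with doxorubicin, where vehicle averaged 230 ± 32.8. LIN28A averaged 522 ± 234 with puromycin, 3860 ± 308 with doxorubicin and 1300 ± 153 with ARA-C.

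**Figure D5:**
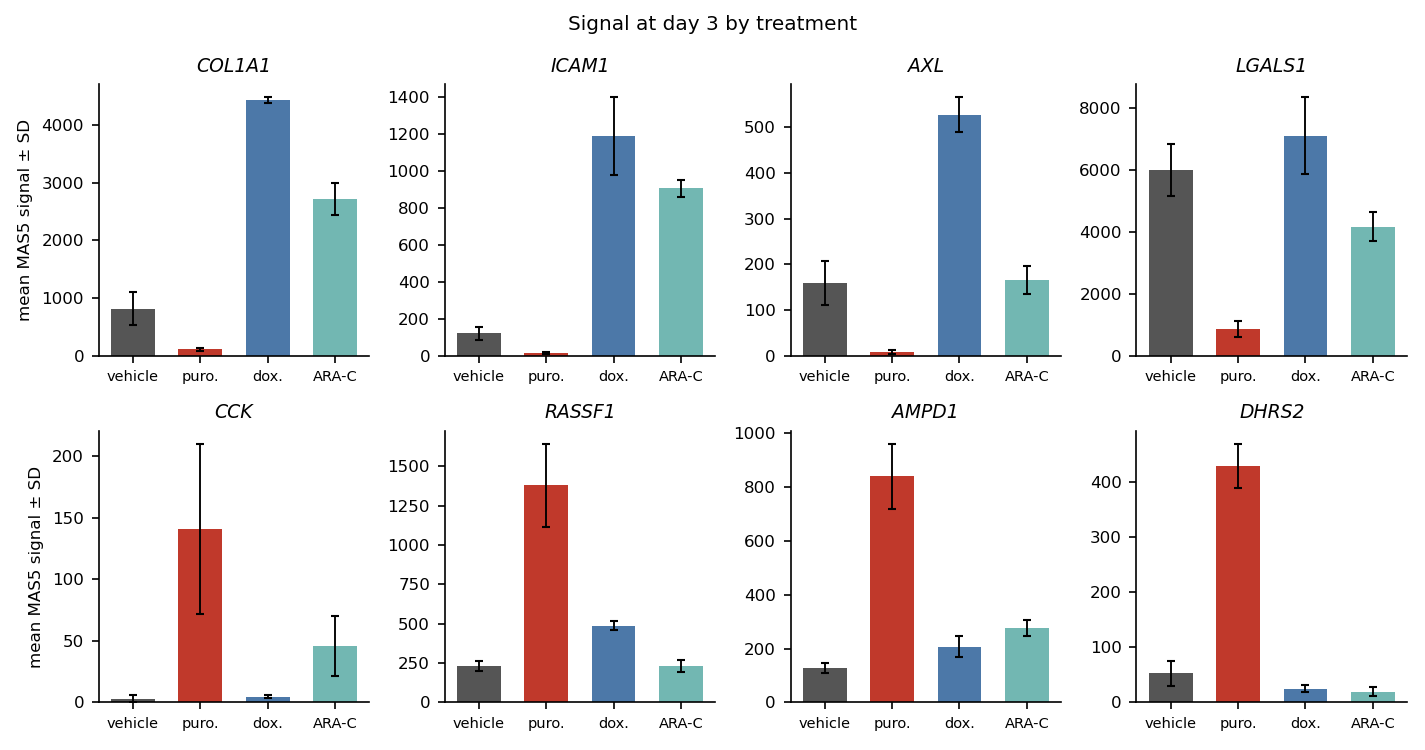
Mean MAS5 signal ± SD at day 3 for 4 genes that fell (top) and 4 that rose (bottom) with puromycin 0.18 μM (red, n = 3), beside vehicle (grey, n = 5), doxorubicin 119.76 nM (blue, n = 3) and ARA-C 0.34 μM (green, n = 3). COL1A1 and ICAM1 are below vehicle with puromycin and above it with both other compounds.

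The 1 array of puromycin 0.18 μM at day 5 has no replicate, and its log2 3′ to 5′ ratios were 4.13 for ACTB and 2.01 for GAPDH, with 5.8% of signals under 10 where the day 3 puromycin arrays had 20.9 to 22.1%. On it OLFM1 read 1040, AMPD1 711, CCK 332, COL1A1 192, LGALS1 336 and LIN28A 314, each on the same side of the day 3 vehicle arrays as at day 3. RASSF1 read 476 and DHRS2 80.5. The array was not compared with vehicle arrays of day 5, and the part of time in culture in these values was not tested.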

How the data were processed

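RNA of A673 cells was hybridised to Affymetrix U133 arrays in 96-well format. The authors summarised each probe set with MAS5 and deposited linear signal intensities, in which every array has been multiplied by its own factor so that mean intensity is equal between arrays. The MAS5 version and detection calls are not given in the sources used here, so that no probe set is called present or absent. Groups came from the sample titles and plate positions from the study's list of arrays. Of 22930 probe sets 715 controls were dropped. A single symbol was assigned to 19230 of the 22215 tested, several to 125 and none to 2860, and only the first kind is named.

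Signals were bounded at 10 and 16000 and log2-transformed. A group-means model was fitted with limma 3.58.1 (R 4.3.3) with an intensity trend to 67 arrays. The array labelled puromycin 0.09 μM day 5 replicate 3 was left out, because earlier results of these data had shown blood transcripts on it. Its marker values are not given here, and the counts with it in the fit are given below. P-values are from limma, adjusted by Benjamini-Hochberg over all probe sets, with a threshold of 0.05. They measure the spread between the biological replicates of 1 line. The 3 puromycin and 5 vehicle arrays limit the precision.

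Named genes are the 15 largest called rises and falls with a mean signal of at least 100 in the higher group, 5 each way for other comparisons, the signature genes, FLI1 and EWSR1, and 5 each way of the knockdown sets. The 4 members of each list with the largest absolute change were to be named too. Many of those that were not called, and some that were, are left out above. Other called list members, HSPA1A, ASNS, ATF4 and members counted were named after their values were seen. The comparison, lists and members were chosen with earlier results of these data known. Normalization, floor, cap, filter, arrays fitted, plate part and replicate block were varied. The script was tested on simulated data.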

Additional observations from a re-analysis of the deposited data

Results flagged for a closer look

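Of 33 quantities tested for a lone vehicle array, 2 stood out, where chance flags about 1 in 20. ACKR3 read 36.7 on vehicle replicate 4 and 3.58 to 11.4 on the other 4 (gap over range 0.9), still below the lowest puromycin array. DHRS2 read 16.5 on the same array and 48.9 to 75.6 on the others (gap over range 0.714).

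Of the 30 largest changes, 9 differed between day 3 and 24 h when the difference itself was tested. On the log2 scale these differences were 2.95 for ACKR3, 1.41 for OLFM1, 1.53 for RASSF1, -2.99 for PLA2G3, -2.83 for SLC2A6, -1.68 for PTP4A3, -1.50 for LRRC17, -2.13 for LGALS1 and -1.36 for COL1A1. The 30 were chosen by their size at day 3, which favours this direction of difference.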

How the results depend on the processing

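The 30 largest changes kept their direction and their call under all alternatives run. The number of called probe sets was less stable. With all 68 arrays in the fit, which adds the array left out of the main fit, it fell from 2577 to 1175 against vehicle, from 79 to 3 between doses, from 325 to 26 for time, from 4723 to 2692 against doxorubicin and from 3938 to 2003 against ARA-C. After quantile normalization it was 185 between doses and 499 for time, and with only the arrays of the groups compared 6 between doses, none of them among the 79. Leaving out each array in turn gave 1428 (without puromycin replicate 3) to 2362 against vehicle, 9 to 121 between doses and 134 (without puromycin 0.18 μM day 3 replicate 3) to 385 for time, with 167 without replicate 2 of that group and 173 without 24 h replicate 3. The causes were not tested.

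With a replicate block, 782 rises and 1456 falls (2238) were called against vehicle. Replicate numbers 1 and 2, the only ones shared, do not pair the samples: deviations of same-numbered arrays correlated at 0.00323 and -0.00195.

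Genes near 0 that did not pass changed sign: HSPB3 was -0.00 at a floor of 32, -0.16 with vehicle arrays of the same plate part and -0.09 to 0.65 leaving out arrays. FHL2 was -0.05 with plate part as a block, -0.14 with the same plate part, -0.04 with the replicate block and -0.16 to 0.27 leaving out arrays. SSX3 was -0.18 with the same plate part and -0.10 to 0.15 leaving out arrays. FLI1 was -0.06 with either block and -0.13 with the same plate part, and EWSR1 -0.02 there. Precision is limited by 3 puromycin arrays, and signals under 10 carry no order.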
